A study of Zea mays with 16 samples.

Results

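AP2-EREBP genes encode plant transcription factors, and 72 of the 38179 genes listed for maize leaf epidermal cells carry that name as the first word of their description. All 72 also met the level rule of at least 10 normalized counts in at least 4 of 16 libraries, and 0 genes of that name fell outside it. The genes were studied in the paired guard cells that open and close the stomatal pore, and in the subsidiary cells beside them. Cells came from the inbred line B104 and were cut by laser from epidermis of leaf 3 of 2-week-old seedlings, grown in 16 h of light at 25 °C and 8 h of dark at 22 °C. Each cell type was taken at 2 times, which gave 4 groups (guard day, guard night, subsidiary day and subsidiary night) of 4 libraries. Day means 2 h after the lights came on and night 2 h after they went off. All plants were of the same unmodified line, and each sample pooled 2 tubes of about 1500 cells. Light, temperature and time of day changed together, so their effects cannot be told apart.

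Proteins of this family share the AP2 DNA-binding domain. ERF-type members are known for binding GCC-box promoters of ethylene and defence genes, DREB-type members for binding the dehydration-responsive element of cold and drought genes, and AP2-type members for roles in flower and meristem development. In stomata, ethylene and drought signals both bear on pore aperture. The files name the family only, so the type of each member below is not known here, and members are called by their B73 gene identifiers.

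The libraries held 16.6 to 28.9 M recovered reads, with a median of 22.2 M. A pair of libraries correlated less with the other 15 than the rest did. The mean Spearman rho was 0.648 for guard night replicate 4 and 0.676 for subsidiary day replicate 1, against 0.713 to 0.764 in the other libraries. Lists of description words taken as cell type markers showed how the groups differed beyond the family. The 60 mesophyll and light-harvesting names summed to 3348 to 6396 RPM (counts scaled to a common library total, as in CPM) in guard cells by day, against 1080.0 to 3471 in subsidiary cells by day. By night they summed to 333 to 1804 in guard cells, against 969 to 1175 in subsidiary cells. The 80 names meant for guard cells begin with Potassium, CONSTANS-like or MYB, and 48 of them are all genes of the MYB label. They were not chosen by known expression in guard cells. These names summed to 2416 to 4520.4 RPM in guard cells by day, against 2387 to 4927 in subsidiary cells by day, and the ranges overlapped. A single gene of this list, Zm00001d044717, described as Potassium, held 148 to 618 RPM in guard cells and 1297 to 3702 in subsidiary cells by day. Without it the list summed to 2117 to 3902 in guard cells by day, against 1009.8 to 2984 in subsidiary cells, and the ranges still overlapped. By night the sums without it were 1538 to 2164 in guard cells, against 1270 to 3277 in subsidiary cells. None of the genes of these 2 lists was at 0 in all 16 libraries. Words of a description do not tell which protein is meant, so the markers do not test the labels firmly.

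One member, Zm00001d022461, took most of the family's reads. It held 56792, 90719.9, 48946 and 42315 normalized counts in guard cells by day, and 39242, 51277, 117703 and 3933 in guard cells by night. In subsidiary cells it held 55604, 124952, 79166 and 129226 by day, and 52997, 56105, 73627 and 46506 by night. Every library but guard night replicate 4 lay at or above 39242, and all groups overlapped. By mean count it was number 25 of all listed genes, and its mean was 32.4 times that of the next member. It took 77.5% to 93.4% of the family's reads in 15 libraries and 14.0% in guard night replicate 4. Counts are not divided by gene length, which the table does not give, so members are ordered here by reads and not by transcripts. Fewer cells of a type and less RNA per cell cannot be told apart in such pooled cells.

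No comparison called Zm00001d022461. The fold changes here and below are differences of mean log2(normalized count + 1), with limma's standard error (SE) and an adjusted p over all 37759 genes tested. A gene counts as called at an adjusted p under 0.05. Guard minus subsidiary cells gave -0.68 ± 0.77 by day (adjusted p = 0.794) and -0.86 ± 0.77 by night (adjusted p = 0.826). Day minus night gave 0.88 ± 0.77 in guard cells (adjusted p = 0.765) and 0.70 ± 0.77 in subsidiary cells (adjusted p = 0.824). Without guard night replicate 4 the night difference between the cell types was 0.13 and the day difference in guard cells was -0.11, so both signs rested on that library.

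**Figure D1:**
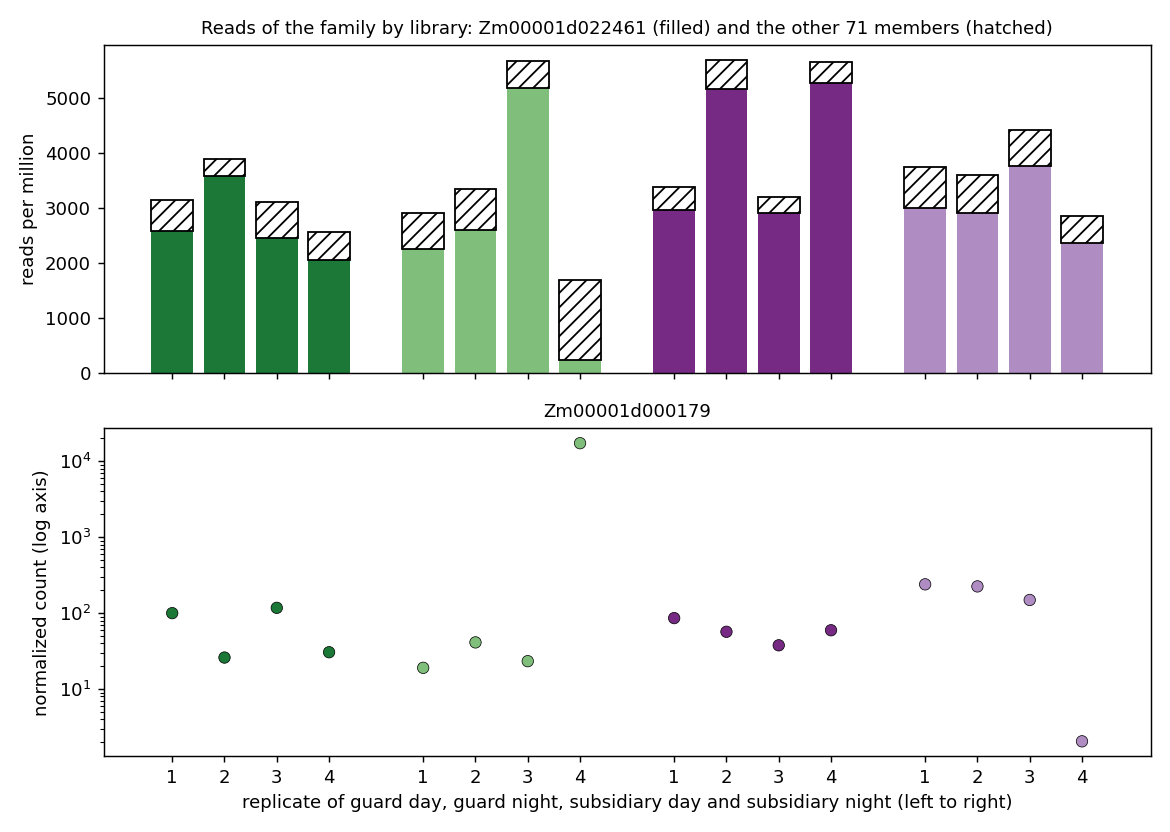
Reads of the family in each library. The upper panel stacks RPM of Zm00001d022461 (filled bars) and of the other 71 members (hatched), and the lower panel shows normalized counts of Zm00001d000179 on a log axis. Replicates 1 to 4 of guard day, guard night, subsidiary day and subsidiary night run from left to right. Guard night replicate 4 had 14.0% of the family's reads in Zm00001d022461 and 17305 normalized counts of Zm00001d000179.

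The family as a whole took 2555 to 3888 RPM in guard cells by day and 1675 to 5662 in guard cells by night. In subsidiary cells the range was 3194 to 5678 by day and 2838 to 4411 by night. Without Zm00001d022461 the other 71 members together took 310.0 to 641 and 493 to 1440 RPM in guard cells by day and by night. In subsidiary cells their sum was 300.2 to 517 by day and 483 to 752 by night. These ranges overlap between the cell types at both times.

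Apart from that gene the family was expressed at low levels. The median of the members' mean counts was 92.7, against 182 over all genes tested. Means lay under 50 for 15 members, at 50 to 200 for 46, at 200 to 1000 for 7 and at 1000 or more for 4. In all 16 libraries a read was found for 62 members. The lowest member was Zm00001d019744, with a mean of 11.5 and at least 10 counts in 6 libraries. Next to it were Zm00001d037941, with a mean of 15.04, and Zm00001d014113, with a mean of 18.9, each at 10 counts or more in 9 libraries.

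**Figure D2:**
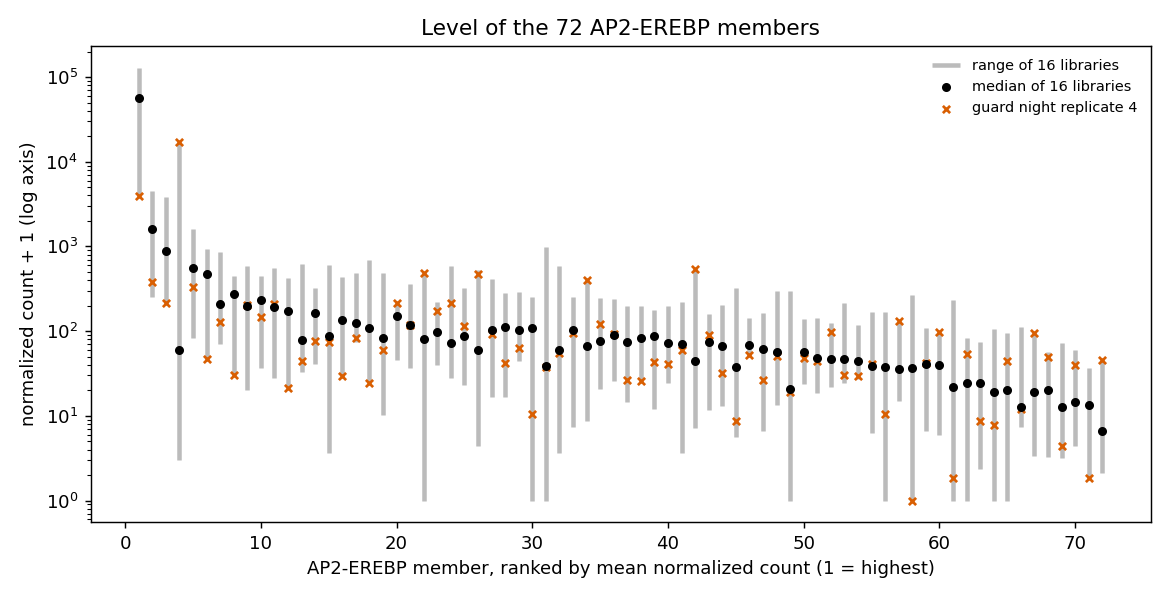
Level of each of the 72 members on a log axis of normalized count + 1, ranked by mean. Grey lines span the lowest to the highest of 16 libraries, black dots are medians and crosses mark guard night replicate 4. The first member stands at a mean of 66819, the second at 2060.3 and the last at 11.5.

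Among the other members with many reads, Zm00001d028017 averaged 1700.0 ± 664 normalized counts in guard cells by day and 2442 ± 1818 by night (SD, n = 4 each). In subsidiary cells it averaged 1503 ± 1171 by day and 2596 ± 2009.7 by night. Its lowest library was subsidiary night replicate 4, at 251, and its highest was guard night replicate 2, at 4574. Zm00001d027929 averaged 784 ± 568 in guard cells by day and 1649.5 ± 1581 by night, with 573 ± 179 by day and 1923 ± 544 by night in subsidiary cells. Zm00001d008546 lay between 45.5 and 925 over the 16 libraries, with a median of 477, and Zm00001d024324 between 29.2 and 452, with a median of 274. The lowest value of both was in guard night replicate 4.

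Zm00001d000179 owed its place among the highest means to 1 library. It was at 100.04, 26.0, 118 and 30.6 normalized counts in guard cells by day, and at 19.1, 41.2, 23.3 and 17305 in guard cells by night. In subsidiary cells it was at 86.1, 56.8, 37.7 and 59.5 by day, and at 239.6, 225, 149 and 2.05 by night. Its median over 16 libraries was 58.2, while its mean was 1157. It varied more between libraries of a group than any other member, with a within-group SD of 2.85 on the log2 scale. The median of that SD was 1.07 over the members and 1.04 over all genes tested. The steadiest member, Zm00001d017477, had an SD of 0.35 and lay between 48.0 and 142 in all libraries. It was chosen after the values were seen.

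Setting guard against subsidiary cells in the light asks which members distinguish the cell types while the leaf is lit. Of the 72 members 2 were higher in guard cells, Zm00001d042588 and Zm00001d034629, and 0 were lower in limma. The share called over all genes tested was 1.34% (0.943% higher and 0.395% lower in guard cells), and 2.78% of the members were called. edgeR called 1 member, against 0.908% of all genes. At an unadjusted p under 0.05 there were 11 members (15.3%), against 12.4% of all genes. The 4 and 4 values did not overlap for 8 members (11.1%), 5 of them higher in guard cells, against a background of 7.8%. The median fold change of the members was -0.05, and that of all genes was 0. The members' share rests on 2 genes.

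Zm00001d042588 was at 212, 307, 491 and 181 normalized counts in guard cells by day, and at 54.4, 38.9, 9.70 and 9.26 in subsidiary cells by day. Every guard cell library lay above every subsidiary cell library. The means were 298 ± 139.5 in guard cells and 28.1 ± 22.4 in subsidiary cells (SD, n = 4 each), and the fold change was 3.64 ± 0.77 (SE, limma adjusted p = 0.022). DESeq2 (adjusted p = 0.000226) and edgeR (adjusted p = 0.0441) called it too. The call ended without guard day replicate 2 (0.0566) or 3 (0.0804), or without subsidiary day replicate 3 (0.0597) or 4 (0.0768).

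Zm00001d034629 was at 1289.6, 712, 1621 and 1307 normalized counts in guard cells by day, and at 207, 539, 82.97 and 95.3 in subsidiary cells by day. Again no library overlapped. The fold change was 2.77 ± 0.67 (SE, adjusted p = 0.0451). This call was close to the threshold and ended when any 1 of 10 libraries was left out (adjusted p 0.0517 to 0.141): guard day 1 to 4, guard night 3, subsidiary day 1, 3 and 4, and subsidiary night 2 and 3. It also ended in edgeR (0.113), with a replicate block (0.0622), with quantile normalization (0.0653) and without both libraries of lowest correlation (0.0601).

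The next members by p did not pass in limma by day. Zm00001d015639 was at 33.7, 41.1, 28.03 and 159.9 in guard cells and at 145, 686, 277 and 263 in subsidiary cells, with a fold change of -2.52 ± 0.68 (adjusted p = 0.0782). Only guard day replicate 4 reached the subsidiary cell range, and without it the adjusted p was 0.0422. It was also called with quality weights (0.0268), in DESeq2 (0.0153) and without both libraries of lowest correlation (0.0455). Zm00001d002760 was at 465, 314, 614 and 406 in guard cells and at 232, 144, 66.8 and 39.7 in subsidiary cells, with no overlap. Its fold change was 2.15 ± 0.59 (adjusted p = 0.0826). It was called without subsidiary day replicate 1 (0.0419), without both libraries of lowest correlation (0.03), with quality weights (0.0324) and in DESeq2 (0.0202). Zm00001d007119 was at 42.6, 17.8, 19.0 and 23.6 in guard cells and at 134, 141, 94.8 and 51.6 in subsidiary cells (-1.98 ± 0.66, adjusted p = 0.167, and 0.0138 in DESeq2). DESeq2 thus called 5 members, of which 3 were higher in guard cells. Its share over all genes was 4.34% (2.62% higher), against 6.94% of the members. The authors' deposited table has the same 5 genes at an adjusted p under 0.05, against 4.5% of all genes with a value there.

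Marker lists were set beside this comparison. By day 52 of the 60 light-harvesting names given above had a fold change above 0, with a median of 1.52, and 2 were called, both higher in guard cells. Of the 80 names meant for guard cells 35 had a fold change above 0, with a median of -0.16. In this list 3 were called higher and 2 lower in guard cells, where 0.943% and 0.395% of all genes were. The 5 bundle sheath names summed to 383 to 1314 RPM in guard cells, against 56.3 to 475 in subsidiary cells, with overlapping ranges, and 1 was called higher. Of this sum Zm00001d000279, described as Ribulose, held 142 to 1053 in guard cells and 0 to 415 in subsidiary cells. Without it the bundle sheath names summed to 64.1 to 318, against 34.1 to 62.1, and these ranges did not overlap. The 41 wax and lipid transfer names summed to 421 to 817 in guard cells, against 1004 to 1524 in subsidiary cells, with 13 fold changes above 0 and 0 called in limma. Without Zm00001d009354, described as 3-ketoacyl-CoA, they summed to 399 to 739, against 656 to 1060, and these ranges overlapped. The 10 vascular names summed to 137 to 373, against 134 to 202, with overlapping ranges and 0 called. The 24 stress names (heat shock, late embryogenesis and dehydrin words) summed to 698 to 1565 in guard cells, against 294 to 367 in subsidiary cells. Most of that difference lay in 1 gene, the dehydrin Zm00001d033483, at 431 to 1019.7 RPM in guard cells and 28.02 to 98.8 in subsidiary cells. Without it the stress names summed to 266 to 545 in guard cells, against 196 to 329. Over all 24 stress names, with this dehydrin included, 11 fold changes were above 0, with a median of -0.25. The 1 call among them was the dehydrin itself. The part of these values in the members' differences was not tested.

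**Figure D3:**
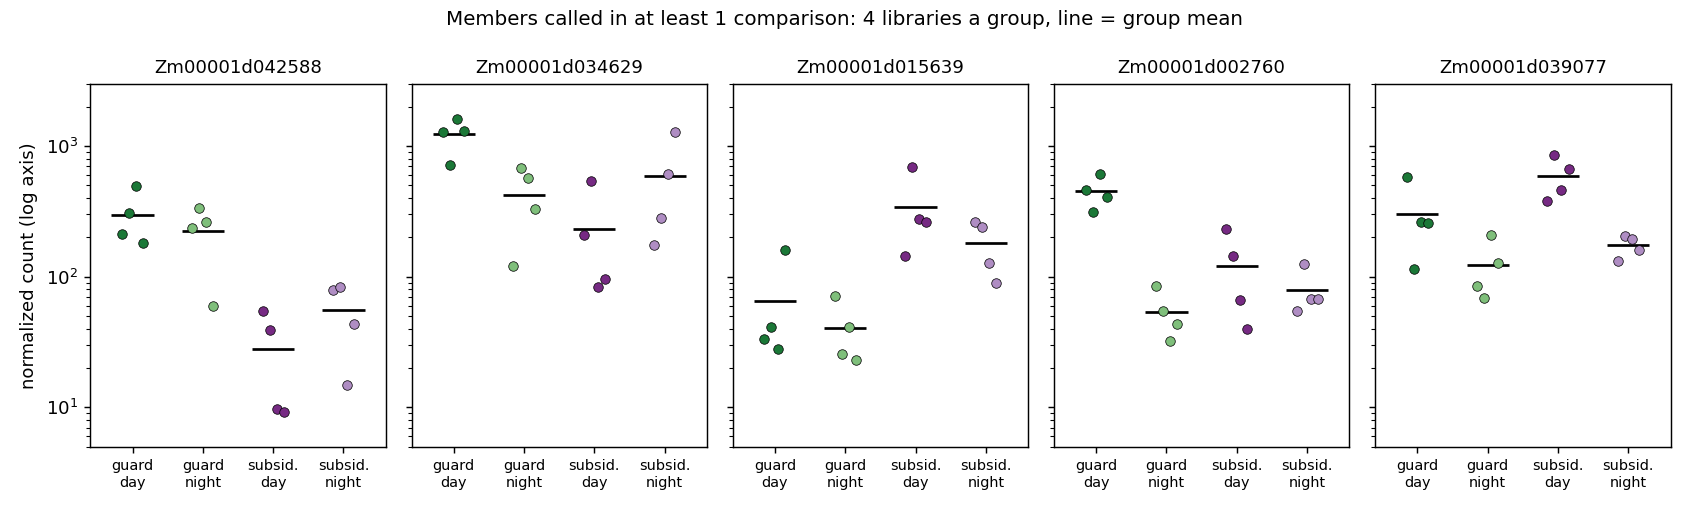
Normalized counts (log axis) of the 5 members called in at least 1 comparison. Each point is 1 of 4 libraries in guard day, guard night, subsidiary day and subsidiary night, and the line is the group mean. Zm00001d042588 averaged 298 in guard cells by day and 28.1 in subsidiary cells by day, and Zm00001d002760 averaged 449 in guard cells by day and 54.0 in guard cells by night.

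By night the same comparison called 0 members in limma, edgeR or DESeq2. The background over all genes was 0.0291% in limma (0.0185% higher and 0.0106% lower in guard cells), 0.0053% in edgeR and 1.62% in DESeq2. In limma 5 members (6.94%) were at an unadjusted p under 0.05, against 8.57% of all genes. The groups did not overlap for 4 members (5.56%), against a background of 5.81%. The median fold change was -0.18 over the members and 0.00 over all genes. Zm00001d015639 came first by p, at 71.7, 25.6, 41.5 and 23.2 in guard cells and 264, 238, 127 and 88.9 in subsidiary cells (-2.13 ± 0.68, adjusted p = 0.289). These groups did not overlap. Zm00001d042588 was at 238, 333, 260.5 and 59.2 in guard cells and at 79.3, 83.5, 14.8 and 43.8 in subsidiary cells (2.01 ± 0.77, adjusted p = 0.421). Guard night replicate 4 was the sole library that overlapped. Zm00001d049309 was at 120.5, 15.6, 88.1 and 41.2 in guard cells and at 189.8, 166, 140.3 and 144 in subsidiary cells (-1.61 ± 0.65, adjusted p = 0.46).

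Averaged over both times, 1 member was higher and 1 lower in guard cells, so that 2.78% of the members were called, against 2.4% of all genes tested (1.34% higher and 1.06% lower). The 8 and 8 values overlapped for every member, while 0.363% of all genes did not overlap. At an unadjusted p under 0.05 there were 10 members (13.9%), against 13.4% of all genes. Zm00001d042588 was higher, at 59.2 to 491 with a median of 249 in 8 guard cell libraries, against 9.26 to 83.5 with a median of 41.4 in 8 subsidiary cell libraries. Its fold change was 2.82 ± 0.55 (SE, adjusted p = 0.00762). Zm00001d015639 was lower, at 23.2 to 159.9 with a median of 37.4 in guard cells, against 88.9 to 686 with a median of 251 in subsidiary cells (-2.33 ± 0.48, adjusted p = 0.0126). A single guard cell library overlapped the other side in each case. Both calls held in every alternative run, with adjusted p of at most 0.0219 and 0.0369 when any 1 library was left out. They also held in edgeR, at 0.0111 and 0.0226, where 2.07% of all genes were called.

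Zm00001d020267 came next and did not pass. It was at 2.62 to 382 with a median of 44.1 in guard cells, against 83.1 to 602 with a median of 149 in subsidiary cells (-2.43 ± 0.71, adjusted p = 0.0845). It was called without guard night replicate 2 (0.0354), which held the 382. DESeq2 called 4 members here (5.56%), against 5.5% of all genes. To the same 2 it added Zm00001d046651 as higher (log2 fold change 2.68, adjusted p = 0.0287) and Zm00001d007119 as lower (-1.38, adjusted p = 0.0148). In limma these had 2.07 ± 0.95 (adjusted p = 0.345) and -1.32 ± 0.46 (adjusted p = 0.176). Zm00001d046651 held 993 normalized counts in guard night replicate 3 and 0 to 225 in the other 15 libraries.

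The guard cells of lit and dark leaves were then compared. Zm00001d002760 was the sole member called, 1.39% of the members against 0.866% of all genes tested (0.747% higher and 0.119% lower by day). It was at 465, 314, 614 and 406 normalized counts in guard cells by day, and at 85.4, 54.6, 32.4 and 43.8 in guard cells by night. Every day library lay far above every night library. The means were 449 ± 126 by day and 54.0 ± 22.8 by night (SD, n = 4 each), and the fold change was 3.08 ± 0.59 (SE, adjusted p = 0.0121). edgeR (0.0232), DESeq2 (1.17e-05) and the authors' deposited table (1.21e-05) called it too. Over all genes these called 0.519%, 2.9% and 3.0%. The call ended without guard day replicate 1 (adjusted p = 0.0501) or 3 (0.0584).

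In guard cells 4 members were at an unadjusted p under 0.05 (5.56%), against 10.1% of all genes. The groups did not overlap for 2 members (2.78%), against a background of 5.71%. Both were higher by day, Zm00001d002760 and Zm00001d034629. Zm00001d034629 was at 1289.6, 712, 1621 and 1307 by day and at 120.5, 675, 565 and 327 by night (1.75 ± 0.67, adjusted p = 0.342). Zm00001d039077 was at 578, 115, 260.4 and 257 by day and at 85.4, 69.0, 207 and 127 by night (1.20 ± 0.50, adjusted p = 0.397). Of the 72 members 48 had a fold change above 0 in guard cells, with a median of 0.19, against -0.01 over all genes. In subsidiary cells 31 members did, with a median of -0.10, against -0.03 over all genes.

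Day against night in subsidiary cells called 0 members in limma and edgeR and 1 in DESeq2, against a limma background of 1.22% (0.673% higher and 0.548% lower by day). Over all genes edgeR called 0.84% and DESeq2 3.53%, so that its 1 member (1.39%) was under the background. At an unadjusted p under 0.05 there were 5 members in limma (6.94%), against 11.2% of all genes. The groups did not overlap for 7 members (9.72%), against a background of 8.84%. Zm00001d039077, the gene that DESeq2 called (adjusted p = 0.0198), was at 381, 849, 458 and 668 by day and at 133, 207, 195 and 160.0 by night. These groups did not overlap, and limma gave 1.71 ± 0.50 (adjusted p = 0.125). The authors' deposited table has it at 0.0197, with 3.62% of all genes with a value called there. A fit on the 8 subsidiary cell libraries (0.0473) and quality weights (0.0309) called it as well.

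Other members were lower by day in subsidiary cells without passing. Zm00001d002762 was at 52.1, 198, 26.9 and 76.7 by day and at 544, 233, 188 and 464 by night (-2.23 ± 0.66, adjusted p = 0.131). Zm00001d052087 was at 19.3, 137, 148 and 142 by day and at 228, 278, 466 and 314 by night (-1.83 ± 0.68, adjusted p = 0.27). The groups did not overlap for Zm00001d052087, while for Zm00001d002762 subsidiary day replicate 2, at 198, lay above subsidiary night replicate 3, at 188.

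Averaged over both cell types, 2 members rose by day and 0 fell in limma, 2.78% of the members against 2.62% of all genes tested (1.7% higher and 0.916% lower by day). The 8 and 8 values overlapped for every member, while 0.609% of all genes did not overlap. At an unadjusted p under 0.05 there were 8 members (11.1%), against 13.8% of all genes. Zm00001d002760 was at 39.7 to 614 with a median of 273 in 8 day libraries, against 32.4 to 126 with a median of 60.8 in 8 night libraries (1.73 ± 0.42, adjusted p = 0.0294). Zm00001d039077 was at 115 to 849 with a median of 419 by day, against 69.0 to 207 with a median of 147 by night (1.45 ± 0.35, adjusted p = 0.0298). edgeR called both (0.0189 and 0.0254), against 2.36% of all genes.

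With 1 library left out, the fold change ran between 1.52 and 1.94 for Zm00001d002760 and between 1.26 and 1.65 for Zm00001d039077. The adjusted p often rose just over the threshold. The call of Zm00001d002760 ended when any 1 of 9 libraries was left out (adjusted p 0.0504 to 0.0686): guard day 1, 3 and 4, guard night 3, subsidiary day 1 and 2, and subsidiary night 1, 3 and 4. It also ended without both libraries of lowest correlation (0.0623). That of Zm00001d039077 likewise ended without any 1 of 9 libraries (0.0501 to 0.073): guard day 1, 3 and 4, guard night 1 and 2, subsidiary day 2 and 4, and subsidiary night 1 and 4. It ended with a replicate block as well (0.055).

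DESeq2 called a further 3 members as lower by day over both cell types, against 2.4% of all genes called lower. In all it called 5 members (6.94%), against 5.74% of all genes. Zm00001d002762 was at 26.9 to 223 by day, against 90.7 to 559.6 by night (limma -1.61 ± 0.47, adjusted p = 0.0813, and 0.0172 in DESeq2). It was called without guard night replicate 3 (0.0395) or subsidiary day replicate 2 (0.0357). Zm00001d020267 was at 2.62 to 100.2 by day, against 6.48 to 602 by night (-2.02 ± 0.71, adjusted p = 0.175, and 0.00574 in DESeq2). It was called without guard night replicate 3 (0.0305). Zm00001d027929, the third most read member, was at 234 to 1579.8 by day, against 215 to 3885 by night (-1.25 ± 0.46, adjusted p = 0.207, and 0.0364 in DESeq2). Without guard night replicate 4, the library of its lowest night value, limma called it (-1.63, adjusted p = 0.0163), and likewise without both libraries of lowest correlation (0.0303).

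The interaction asks whether the cell type difference by day differs from that by night. It called 0 members in limma, edgeR and DESeq2, against a background over all genes of 0.0% in limma, 0.00265% in edgeR and 0.395% in DESeq2. At an unadjusted p under 0.05 there were 3 members (4.17%), against 6.71% of all genes. Zm00001d034629 had 3.10 ± 0.94 (adjusted p = 0.538) and Zm00001d002760 had 2.70 ± 0.84 (adjusted p = 0.541). Zm00001d052087 had 2.03 ± 0.96 (adjusted p = 0.742). So the higher level of Zm00001d002760 by day was called in guard cells, while a difference of its day change between the cell types was not shown.

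**Figure D4:**
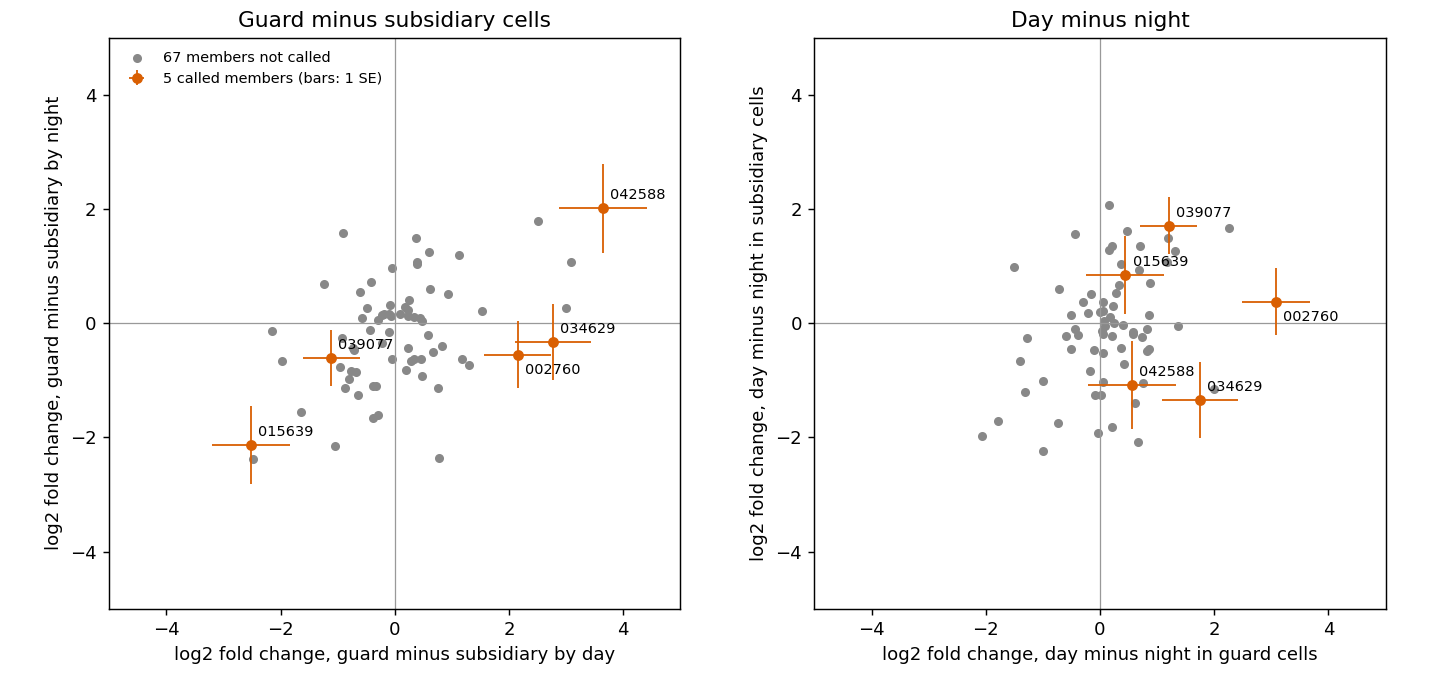
Log2 fold changes of the 72 members. The left panel sets guard minus subsidiary cells by day (horizontal) against the same by night (vertical), and the right panel day minus night in guard cells (horizontal) against subsidiary cells (vertical). The 5 called members carry bars of 1 SE and the end of their identifier. Zm00001d042588 lies at 3.64 and 2.01 in the left panel and Zm00001d002760 at 3.08 and 0.38 in the right.

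The cell type differences by day and by night, which share no library, had the same sign for 44 of 72 members, with a Pearson correlation of 0.45 and a Spearman rho of 0.36 across members. The day-night differences of the 2 cell types had the same sign for 39 members, with 0.31 and 0.28. Members are not independent replicates, and these values describe the 16 libraries.

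Members did not share a common profile. Over the 2556 pairs of members the Pearson r of log2 values across 16 libraries had a median of 0.02 and ran between -0.78 and 0.87. The highest value joined Zm00001d022461 and Zm00001d024324, both lowest in guard night replicate 4. The profile most like that of Zm00001d042588 was that of Zm00001d007033 (r = 0.62), followed by Zm00001d034629 (0.55) and Zm00001d002760 (0.46). Zm00001d007033 was at 123, 111, 221 and 76.9 in guard cells by day, against 12.5, 65.3, 70.0 and 2.65 in subsidiary cells by day, and was not called. Nearest to Zm00001d015639 were Zm00001d007119 (0.70), Zm00001d024324 (0.56) and Zm00001d039077 (0.54). Nearest to Zm00001d002760 were Zm00001d034629 (0.54), Zm00001d007033 (0.46) and Zm00001d042588 (0.46). The genes compared share libraries and their cell types, and r carries no test.

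Of 4 further genes spelled AP2, Ap2 or EREBP, which the rule leaves out, 1 rose by day over both cell types, where 1.7% of all genes did. Zm00001d038001 was at 401, 319, 404 and 476 normalized counts in guard cells by day and at 67.1, 92.4, 37.6 and 291 by night. In subsidiary cells it was at 127, 133, 280.2 and 311 by day and at 59.1, 54.5, 81.1 and 25.3 by night. The fold change was 2.02 ± 0.43 (SE, adjusted p = 0.0115).

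Genes of ethylene synthesis stand upstream of ERF-type factors, and of 8 such names 2 were lower in guard cells over both times and 0 were higher, with 1.06% of all genes called lower. Zm00001d024853, described as Acc, was at 208 to 2045 in guard cells and at 600.3 to 4213 in subsidiary cells (-1.92 ± 0.39, adjusted p = 0.01). Zm00001d018211, whose description begins with 1-aminocyclopropane-1-carboxylate, the ethylene precursor, was at 36.6 to 468 in guard cells and at 51.0 to 1316 in subsidiary cells (-2.02 ± 0.46, adjusted p = 0.0225). That call ended without subsidiary day replicate 2 (0.0559) or 4 (0.0575) or subsidiary night replicate 3 (0.0596). The same gene was lower by day over both cell types, at 36.6 to 329, against 52.3 to 1316 by night (-1.94 ± 0.46, adjusted p = 0.0267). This call ended without any 1 of guard day 1, guard night 1, subsidiary day 3, subsidiary night 3 and subsidiary night 4 (0.0506 to 0.071), and with a replicate block (0.0526).

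Of 9 names of ethylene signalling 1 rose by day over both cell types, Zm00001d018158, described as Ethylene-responsive, where 1.7% of all genes rose. It was at 282 to 999 in 8 day libraries and at 12.01 to 313 in 8 night libraries (2.36 ± 0.48, adjusted p = 0.00855). The words Dehydrin, Late and Cold were taken for genes with the dehydration-responsive element, but whether their promoters hold it was not tested. Of 9 such names 1 was called, the dehydrin Zm00001d033483. It was higher in guard cells by day (3.59 ± 0.62, adjusted p = 0.0062) and over both times (2.57 ± 0.44, adjusted p = 0.00318), with 0.943% and 1.34% of all genes called higher. Counts of 1 or 2 genes in lists this short do not set a list apart from all genes. These lists were rebuilt from first words, which do not tell which enzyme or factor is meant.

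Beside the family, 12 other transcription factor labels among the descriptions (WRKY, MYB, MYB-related, BHLH, BZIP, NAC, C2H2, HSF, HB, G2-like, ABI3VP1 and Orphans) held 295 genes. Between the cell types by day 3 of these were higher and 1 lower in guard cells (1.36%), and over both times 5 were higher and 2 lower (2.37%). By day over both cell types 6 were higher and 3 lower (3.05%), of which 2 higher and 2 lower were Orphans. For the AP2-EREBP genes each of these comparisons gave 2.78%, or 2 of 72. Over all genes tested the shares were 1.34%, 2.4% and 2.62%. Day against night in guard cells called 1.39% of the AP2-EREBP genes and 1.36% of the other labels, against 0.866% of all genes. In subsidiary cells it called 0% and 1.36%, against 1.22% of all genes. The difference from the other labels was not tested. Orphans, which is not the name of a single family, held 46 of the 295 genes. The 48 MYB genes among them are also part of the guard cell names above.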

How the data were processed

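About 10 pg of RNA per sample of laser-cut cells was turned into cDNA by the SMART-Seq v4 kit, of which 150 ng entered Nextera XT library making, as the labels' protocols state. This method marks no strand and no molecules, so reads of overlapping genes or near-identical family members cannot be told apart, and reads are not independent molecules. The deposited values are normalized counts (signal): the authors scaled each library's gene counts by a single size factor, as the headers and steps of the values show; "Normalized counts" is the name per the file headers. The build was B73 RefGen_v4 and the authors' tests were made with DESeq2 1.40.2, per the submitters' processing notes, so B104 reads that differ from B73 can be lost. Aligner and counter: not given in the sources used here. Each adjusted p-value the authors gave for 4 comparisons was also deposited and is quoted where named. In all libraries 100% of values were whole multiples of 1 step within 0.01, which gave back whole reads. No member's identifier matched the reference table of names (0 of 72).

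Members were tested with limma-trend after taking log2(normalized count + 1), fitting 4 group means over 16 libraries (12 residual degrees of freedom), on 37759 genes with at least 10 in at least 4 libraries, with Benjamini-Hochberg adjustment over all of them. It was checked on simulated data. The 7 contrasts were guard minus subsidiary cells and day minus night, each within the other factor and averaged, and their interaction. Recovered reads went into edgeR 4.0.16 and DESeq2 1.42.0 as alternatives (R 4.3.3, limma 3.58.1). Subsidiary night samples were grouped by treatment and library name, since their titles carry a day-like word. Named genes were called members (up to 10 per contrast and direction), the 3 of smallest p per contrast with fewer than 3 calls, the 8 of highest mean, the 3 nearest the level rule and those of likest profile. Members that only DESeq2 called, and genes said to be so, were chosen after their values were seen. The members and lists were chosen with earlier results of these data known. Replicates come from separate collections, and the p-values reflect how collections, with their preparation, vary.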

Additional observations from a re-analysis of the deposited data

Results flagged for a closer look

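Within groups of 4, a library was marked where its gap to the nearest other exceeded Dixon's 95% critical value for its share of the group's range on the log2 scale. Over 20 named members and 80 groups, chance alone marks about 4, and 3 were marked. Zm00001d000179 held 17305 normalized counts in guard night replicate 4, against 19.1 to 41.2 in the other 3 libraries of that group. The same gene held 2.05 in subsidiary night replicate 4, against 149 to 239.6 in the other 3. Zm00001d052087 held 19.3 in subsidiary day replicate 1, against 137 to 148 in the other 3. Guard night replicate 4 and subsidiary day replicate 1 are also the libraries of lowest correlation with the rest. In guard night replicate 4, 15 of 72 members (20.8%) lay more than 3 log2 units from the mean of the other 3 libraries, against 10.3% of all genes tested.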

How the results depend on the processing

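The number of members called between the cell types by day was 2. It was 1 with quantile normalization, a replicate block or edgeR, 4 with quality weights and 5 in DESeq2, and 0 to 2 when each library was left out in turn. The number called over all genes tested moved as well. By day the main fit called 356 higher and 149 lower, and quality weights 531 and 293. Quantile normalization called 281 and 150, and the block 321 and 144. edgeR called 0.908% of all genes and DESeq2 4.34%. Without guard day replicate 3 limma called 176 higher and 68 lower. In guard cells the 1 day-night call held in each setting but came to 0 without guard day replicate 1 or 3, so leaving out 1 library gave 0 to 1. Over all genes tested the main fit called 282 higher and 45 lower there. Without guard day replicate 1 it called 151 and 43, and without replicate 3 it called 160 and 22. In subsidiary cells the 0 calls came to 1 with quality weights or DESeq2 and 2 with only the groups compared. The main fit called 254 genes higher and 207 lower there over all genes tested. Quality weights called 529 and 430, DESeq2 734 and 600, and the fit on the groups compared 325 and 305. Over both times the 2 cell type calls came to 4 in DESeq2 (2 to 3 with 1 library left out). There DESeq2 called 5.5% of all genes and limma 2.4%. Over both cell types the 2 day-night calls came to 1 with the block and 5 in DESeq2 (0 to 3 with 1 library left out). Here DESeq2 called 5.74% of all genes and limma 2.62%. The block called 580 higher and 308 lower, against 642 and 346 in the main fit. The night comparison and the interaction gave 0 in every setting. The cause of these moves was not tested.

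Fold changes were followed across settings for a chosen set of results, mostly those of smallest p, and not for every member. Among these a sign reversed only for Zm00001d022461. Its night cell type difference of -0.86 was 0.13 and its day-night difference of 0.88 in guard cells was -0.11. Both changed sign without guard night replicate 4, and also without both libraries of lowest correlation. With 1 library left out, these differences ran between -1.50 and 0.13 and between -0.11 and 1.52. Pseudocounts of 0.5 and 10, the absent filter, TMM and upper-quartile scaling changed no count of member calls by more than 1.5 times. Replicate numbers were not tied to shared collections in the labels. Deviations of same-numbered libraries correlated at -0.06 to 0.08 (24 pairs), and 6 of 16 libraries correlated best with their own number, so the numbers were not taken as pairs. The block lost the calls of Zm00001d034629 by day, and of Zm00001d039077 and Zm00001d018211 over both cell types. With 4 libraries a group and a median SE of 0.78 for members, small differences could not be detected.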
